A study of Sus scrofa with 8 samples.

Results

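The genes described here were listed for endothelium, the cell layer that lines blood vessels and lymphatic vessels. The list holds 33 symbols matched by name and was drawn up with earlier results of these data known. It includes FAM167B, for which no role is given here. The symbol column of the count table held 30 of the 33, out of 31907 genes in all, and all 30 had enough reads to be tested among 19862 genes. The other members, PDPN, ECSCR and SOX7, had a blank symbol in the table and were found by their gene identifier. Their values are given below, but they are left out of every count of members.

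The skin came from wild-type Yorkshire swine, 2 animals numbered 13 and 14, whose age and sex are not given in the sources used here. In each pig 2 sites were injected into the dermis with 200 ng of the cytokine IL-15 in 100 µl of saline and biopsied after 3 h, and 2 sites were biopsied uninjected, which gave 4 injected and 4 control biopsies for RNA sequencing. The study used them to choose IL-15-induced genes as readouts of JAK signalling. No site received saline alone, and injected sites were all numbered 12 and control sites 6 or 7, so IL-15, the needle, the fluid and the place on the grid cannot be told apart. Biopsies of a pig are not separate animals, so each p below measures the spread between sites within these 2 pigs.

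Endothelial cells hold together through junction proteins such as VE-cadherin, PECAM1 and claudin-5. They read growth and stability signals through the VEGF receptors and the TIE receptors, and a set of transcription factors of the ETS and SOXF families holds their identity and splits them into arterial, venous and lymphatic kinds. Skin carries a dense microvascular plexus and, beside it, blind-ended lymphatic capillaries that drain fluid and immune cells. IL-15 is best known for its action on lymphocytes.

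Total counts per biopsy ran from 28471089 to 36070107. The counted members had between 84 and 12323 reads each in a biopsy, and none was at 0. All 7 endothelial markers used to check the tissue (PECAM1, CDH5, CLDN5, VWF, ERG, TIE1 and KDR) and all 5 lymphatic ones (PROX1, LYVE1, FLT4, PDPN and MMRN1) were detected in all 8 biopsies. One library stood apart in its marker sums, the control biopsy from site 7b of pig 13. Its summed fibroblast marker level was 19430 CPM, against 77190 to 192900 in the other 7. Its keratinocyte marker sum was 38700 CPM, against 12200 to 24120. COL1A1, COL1A2 and COL3A1 made up most of that fibroblast sum (8115, 4617 and 5160 CPM). They were lowest at site 7b, as were DCN, DPT and THY1. LUM and FBLN1 were not lowest there, and PDGFRA was highest, at 124 CPM against 64.6 to 107 CPM elsewhere. CPM is the read count relative to the library's TMM-scaled total, in the usual unit, and RPKM is CPM per kilobase of transcript. Red blood cell markers summed to between 6.17 and 23.2 CPM in pig 13 and between 212 and 549 CPM in pig 14. In a whole biopsy, fewer cells of a type and less RNA per cell cannot be told apart.

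Compared per length of transcript, the members spanned a 21.3-fold range of level. PECAM1, an adhesion molecule of the endothelial junction, stood highest with a mean of 26.5 RPKM over the 8 biopsies. Its span overlaps that of DDX5 on the same strand, which had 10881 to 17482 reads, and mixing of their reads was not tested. VWF, the clotting glycoprotein stored in endothelial granules, followed at 26.4 RPKM, and PLVAP, which forms the diaphragms of fenestrae and caveolae, at 24.1 RPKM. The ranges of these leading genes overlapped almost wholly, from 21.3 to 32.6 RPKM for PECAM1, 20.7 to 35.6 RPKM for VWF and 13.7 to 32.6 RPKM for PLVAP. Among the 30 counted members EGFL7 (21.6 RPKM), CLDN5 (21.0 RPKM) and CDH5 (16.9 RPKM) came next and overlapped each other too. PDPN, found by identifier, had 18.1 RPKM. The lowest members were APLN, the peptide ligand apelin, at 1.25 RPKM, the lymphatic factor PROX1 at 1.62 RPKM, ANGPT2 at 1.72 RPKM and SOX17 at 1.78 RPKM. The order of neighbours is therefore not resolved, while the top and the bottom of the order do not overlap.

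**Figure D1:**
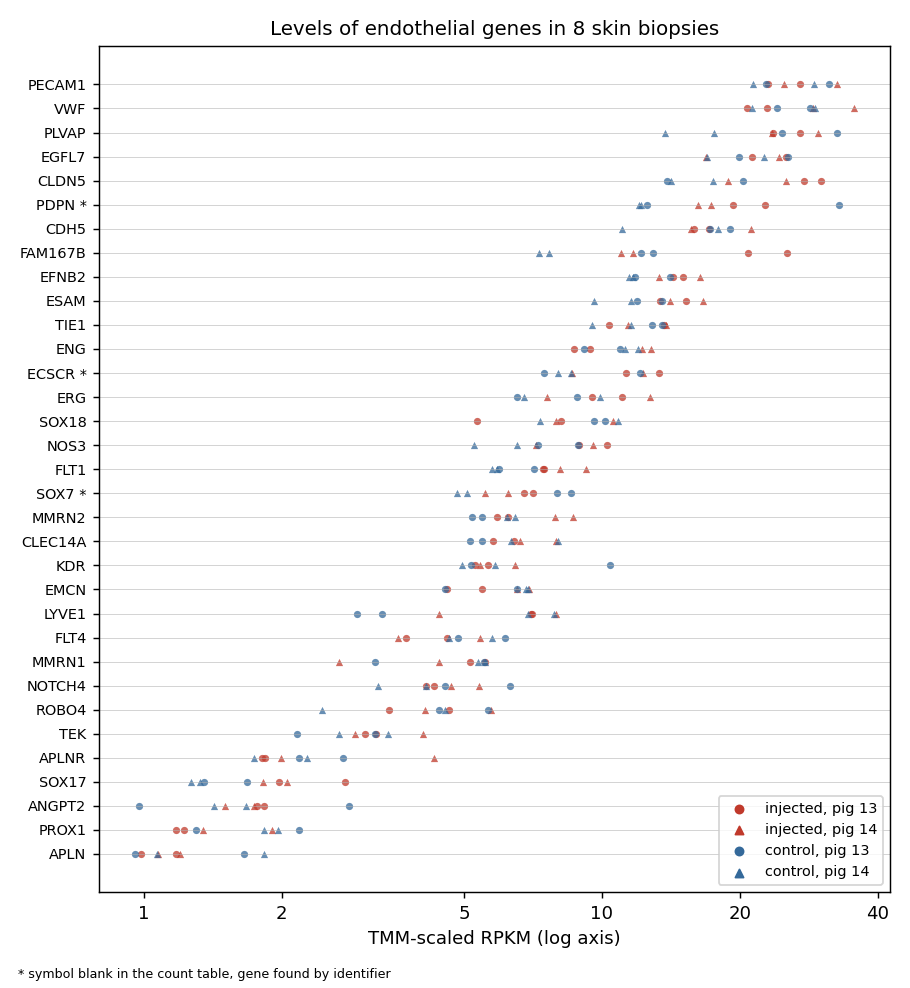
Level of each endothelial gene in each of the 8 biopsies, as TMM-scaled RPKM on a log axis, with genes ordered by their mean. Red marks injected and blue control sites, circles are pig 13 and triangles pig 14. PECAM1, VWF and PLVAP lie above 13 RPKM in every biopsy, and APLN below 2.

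After IL-15 no counted member passed a Benjamini-Hochberg adjusted p of 0.05 in edgeR's quasi-likelihood test, where 7 of all 19862 genes were called higher (0.0352%) and 0 lower (0%). The members' adjusted p ran from 0.173 to 0.999. DESeq2 called 1 member higher, FAM167B, against 0.276% of the 17765 genes to which it gave an adjusted p. It called 0 members lower, against 0.0507%. At an unadjusted p under 0.05, 8 of 30 members (26.7%) were higher at injected sites, beside 2.39% of all genes, and 0 were lower, beside 2.15%. Those 8 were FAM167B, CLDN5, SOX17, FLT1, MMRN2, NOS3, ESAM and EFNB2. In 7 of 30 members (23.3%), all of these except ESAM, both injected biopsies of each pig lay above both controls of that pig, beside 3.11% of all genes. In 0 members did they lie below in both pigs, beside 2.83%. Without FAM167B, 7 of 29 members were higher at that unadjusted p, 6 of 29 lay above in both pigs, and DESeq2 called 0. SOX17 and FLT1 had all 4 injected biopsies above all 4 controls, which held for 1.15% of all genes.

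Over the members as a whole the differences were small. Of the 30, 21 (70.0%) had a log2 fold change above 0, beside 48.2% of all genes, and their median was 0.09, beside -0.01 over all genes. That median differed between the animals: the differences of mean log2 CPM had a median of -0.03 in pig 13 and of 0.26 in pig 14. In 13 members the difference was positive in both pigs and in 4 negative in both, while 11 were positive in pig 14 and negative in pig 13. The remaining members, LYVE1 and MMRN1, were positive in pig 13 and negative in pig 14.

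Single biopsies of pig 14 stood at both ends of these levels. The injected biopsy from site 12d of pig 14 had the highest value of all 8 biopsies for 15 of 30 members, and the control biopsy from site 6b of pig 14 the lowest for 13. Summed over the counted members, the level was 1818 CPM in the former, 1206 CPM in the latter and 1345 to 1570 CPM in the other 6. The median member log2 fold change was -0.04 without the former and -0.05 without the latter. In each of those fits 5 members were higher at an unadjusted p under 0.05 and 2 were lower, FLT4 and PROX1 without site 12d and FLT4 and SOX18 without site 6b. Of all genes 1.89% were higher and 1.49% lower at that p without site 12d, and 1.81% and 1.68% without site 6b. Without the site 7b biopsy of pig 13 the median was 0.17, with 8 members higher and 0 lower, beside 3.38% and 2.55% of all genes.

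**Figure D2:**
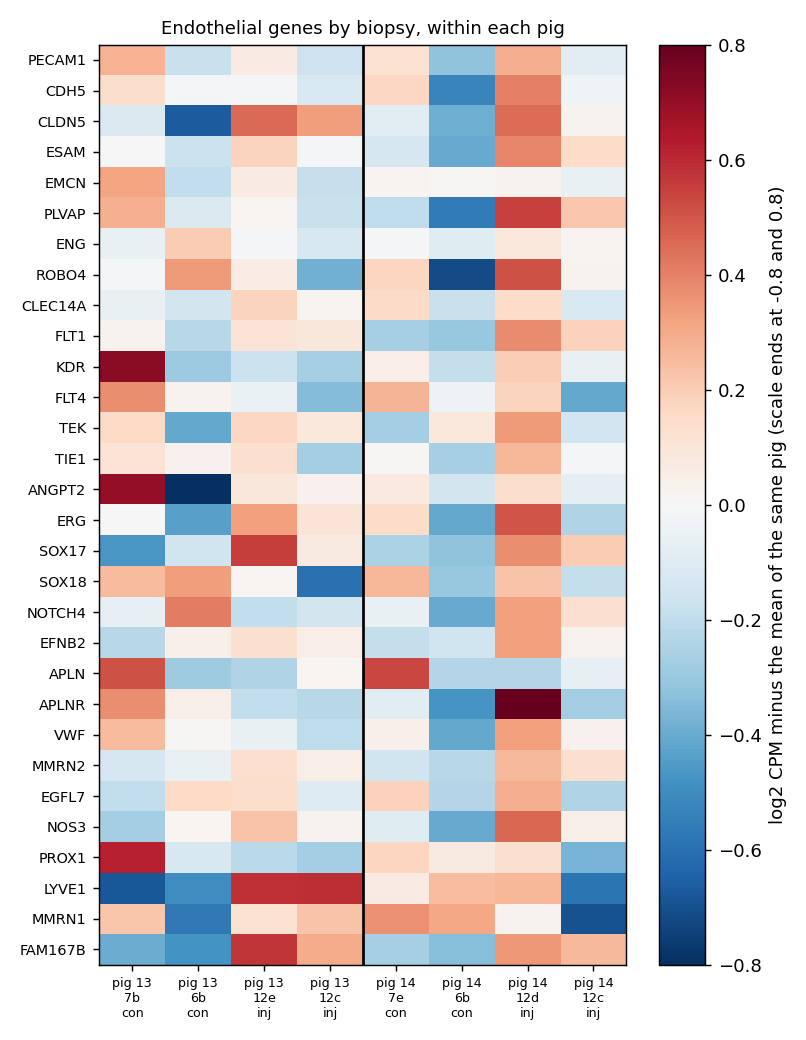
Log2 CPM of the 30 counted members in each biopsy, less the mean of the same pig, with the pigs separated by the black line (con, control; inj, injected). Most rows are red in the column of pig 14 site 12d and blue in that of site 6b; the colour scale ends at -0.8 and 0.8.

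FAM167B, on chromosome 6 from 88715794 to 88717269 on the plus strand, had the smallest p of the members and the ninth smallest of all genes (positions follow the deposited files, on pig build Sscrofa11.1). Its level was 22.1 and 18.3 CPM at the injected sites of pig 13, against 11.3 and 10.7 CPM at the controls. In pig 14 it was 10.2 and 9.64 CPM when injected, against 6.71 and 6.38 CPM. Injected and control sites were thus apart within each animal, while the controls of pig 13 lay above the injected sites of pig 14. The injected mean was 15.1 ± 6.13 CPM and the control mean 8.76 ± 2.58 CPM (SD, n = 4 each). The difference of 0.75 ± 0.12 on the log2 scale (SE), or 1.68-fold, had an edgeR adjusted p of 0.173 and a DESeq2 adjusted p of 0.000273. Across the edgeR alternatives that adjusted p ran from 0.0753 to 1. FAM167B also had all 4 biopsies of pig 13 above all 4 of pig 14, as 8.73% of all genes did. No role is given here for this gene.

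CLDN5 encodes claudin-5, the tight-junction protein that limits the passage of small molecules between endothelial cells. It lies on the minus strand of chromosome 14, from 51161032 to 51163482. Its level was 73.7 and 67.8 CPM at injected and 49.8 and 33.9 CPM at control sites in pig 13. The injected sites of pig 14 had 61.9 and 46.3 CPM and the controls 42.8 and 34.7 CPM. No injected site lay below a control of its own pig, but the lowest injected value was below the highest control of the other pig. The means were 62.4 ± 11.8 and 40.3 ± 7.50 CPM, a difference of 0.62 ± 0.15 with an edgeR adjusted p of 0.733 and a DESeq2 adjusted p of 0.0697, the second lowest of the members by DESeq2.

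Other junction and surface genes differed less. ESAM, an adhesion molecule of the endothelial tight junction, had 30.9 and 26.2 CPM injected against 21.5 and 17.9 CPM control in pig 14. In pig 13 it had 28.3 and 24.9 CPM against 25.1 and 22.2 CPM. The groups overlapped in pig 13 only by the 24.9 and 25.1 CPM, and the difference was 0.35 ± 0.12 (unadjusted p = 0.0155, edgeR adjusted p = 0.964). An unnamed pseudogene with 23 to 60 reads lies within ESAM on the opposite strand.

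The broad vessel markers of this role showed no difference that the test resolved. PECAM1 had 183 to 259 CPM at injected and 169 to 248 CPM at control sites, a log2 fold change of 0.04 ± 0.15. CDH5, which encodes VE-cadherin of the adherens junction, had 65.0 to 87.9 and 46.0 to 79.4 CPM, and 0.10 ± 0.17. Of 9 counted junction and surface genes 7 had positive values and 2 negative ones, EMCN, a sialomucin of venous and capillary endothelium (-0.08 ± 0.12), and ENG, the TGF-beta co-receptor endoglin (-0.02 ± 0.10). The guidance receptor ROBO4 (0.08 ± 0.26) and the lectin-family surface protein CLEC14A (0.11 ± 0.11) lay between. ECSCR, a surface protein of endothelial cells and one of the members found by identifier, had 0.33 ± 0.17, with 11.3 to 17.4 CPM injected and 9.76 to 15.8 CPM control. EMCN and ENG, 2 of 30 members, had all 4 biopsies of pig 14 above all 4 of pig 13, beside 9.87% of all genes. For EMCN the closest pair was 33.87 CPM in pig 14 and 33.82 CPM in pig 13.

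The receptors of VEGF had values of both signs. FLT1, or VEGFR1, binds VEGF-A with high affinity and acts largely as a decoy in developing vessels. Its level was 62.0 and 54.2 CPM injected against 39.6 and 38.7 CPM control in pig 14, and 50.1 and 49.8 CPM against 47.6 and 40.1 CPM in pig 13. All 4 injected sites were above all 4 controls, and the closest pair was 49.8 and 47.6 CPM, both in pig 13. The difference was 0.38 ± 0.11, with an edgeR adjusted p of 0.879 and a DESeq2 adjusted p of 0.393.

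KDR, or VEGFR2, the main signalling receptor for VEGF-A, had 34.1 and 32.0 CPM injected and 63.2 and 31.4 CPM control in pig 13. Pig 14 had 39.2 and 32.9 CPM injected and 35.5 and 29.9 CPM control. The 63.2 CPM of site 7b was far above every other biopsy, and the groups otherwise overlapped. Its log2 fold change was -0.19 ± 0.23, and 0.11 without that biopsy. FLT4, or VEGFR3, the VEGF-C receptor of lymphatic endothelium, had 26.0 and 21.1 CPM injected against 34.9 and 27.5 CPM control in pig 13. In pig 14 it had 30.6 and 20.3 CPM against 32.6 and 26.3 CPM. FLT4 was lower at injected sites without overlap in pig 13 and with overlap in pig 14, at -0.31 ± 0.15 (unadjusted p = 0.0679, edgeR adjusted p = 0.964). Here and below, the share of all genes that are apart in a single pig, with few biopsies a side, was not computed.

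TEK, or TIE2, is the receptor of the angiopoietins, TIE1 its partner without a firm ligand, and ANGPT2 the context-dependent antagonist that endothelial cells release on activation. TEK had 28.6 and 20.3 CPM injected and 18.6 and 23.9 CPM control in pig 14, and 22.5 and 21.3 against 22.4 and 15.1 CPM in pig 13. TIE1 had 42.2 to 56.1 CPM injected and 38.8 to 54.8 CPM control. Both pairs of groups overlapped, at 0.21 ± 0.16 for TEK and 0.06 ± 0.13 for TIE1. ANGPT2 was tight at injected sites, from 9.71 to 11.8 CPM, and wide at controls, where the biopsies of pig 13 held 18.1 CPM at site 7b and 6.29 CPM at site 6b, the highest and the lowest of all 8. Its log2 fold change was -0.00 ± 0.28, and 0.38 without site 7b.

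**Figure D3:**
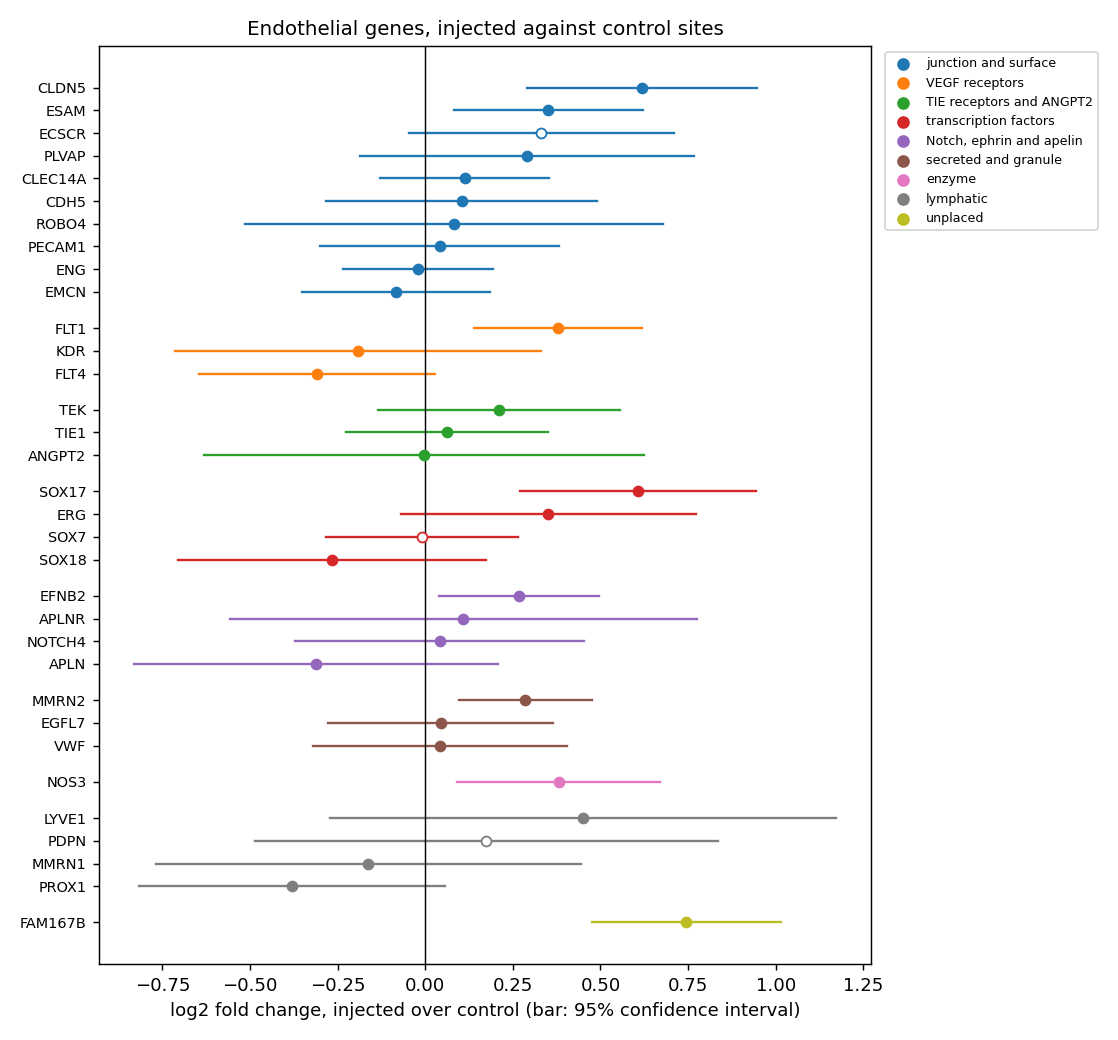
Log2 fold change, injected over control, of each endothelial gene with its 95% confidence interval, grouped by role; open circles are genes found by identifier. The intervals of 22 of the 30 counted members cross 0, and FAM167B, CLDN5 and SOX17 lie farthest to the right.

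Among the transcription factors SOX17, a SOXF factor of arterial endothelium, had similar differences in both pigs. It lies on chromosome 4 from 76852230 to 76857139, on the minus strand. Its level was 11.9 and 8.54 CPM injected against 5.87 and 7.28 CPM control in pig 13, and 8.89 and 7.91 against 5.76 and 5.50 CPM in pig 14. Every injected biopsy was above every control, and the within-pig differences were 0.63 and 0.58 on the log2 scale. The overall difference was 0.61 ± 0.15, with an edgeR adjusted p of 0.754 and a DESeq2 adjusted p of 0.109.

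The other SOXF factors had values at or below 0. SOX18, which drives lymphatic specification in mouse embryos, had 14.3 and 9.37 CPM injected against 16.9 and 17.9 CPM control in pig 13. Pig 14 had 18.6 and 13.9 against 19.1 and 12.9 CPM, and over both pigs the log2 fold change was -0.27 ± 0.20. SOX7, found by identifier, had 20.5 and 21.4 CPM injected against 24.1 and 26.0 CPM control in pig 13, but 16.8 and 18.9 against 15.4 and 14.6 CPM in pig 14. The groups did not overlap in either pig and stood in opposite order, with -0.01 ± 0.12 overall. All 4 biopsies of pig 13 had more SOX7 than all 4 of pig 14. ERG, the ETS factor that maintains endothelial identity, had 18.5 to 31.0 CPM injected and 15.9 to 24.2 CPM control, at 0.35 ± 0.19. SOX18 overlaps TCEA2, which had 843 to 1233 reads on the opposite strand.

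NOS3, the endothelial nitric oxide synthase that relaxes vascular smooth muscle, is on chromosome 18. Its level was 50.0 and 43.4 CPM injected against 35.2 and 43.0 CPM control in pig 13, and 46.5 and 34.9 against 31.6 and 25.5 CPM in pig 14. The injected sites were above the controls in each pig, with the closest pair at 43.4 and 43.0 CPM in pig 13. The difference was 0.38 ± 0.13, at an unadjusted p of 0.0146 and an edgeR adjusted p of 0.964. EFNB2, the arterial ligand ephrin-B2, had 48.7 and 46.4 CPM injected against 38.3 and 45.8 CPM control in pig 13, and 53.2 and 43.2 against 37.2 and 38.0 CPM in pig 14. These too were apart within each pig, at 0.27 ± 0.10, an unadjusted p of 0.0254 and an edgeR adjusted p of 0.964.

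MMRN2, an extracellular matrix protein of endothelium that binds CLEC14A, had 65.8 and 60.1 CPM injected against 49.2 and 47.3 CPM control in pig 14, and 47.6 and 45.0 against 39.5 and 41.6 CPM in pig 13. The groups were apart in each animal, and the difference was 0.29 ± 0.09, with an edgeR adjusted p of 0.895. MMRN2 overlaps SNCG on the opposite strand, which had 705 to 1593 reads. No source used here states a strand setting for the counting, and reads of such partners may therefore be mixed. PECAM1 overlaps DDX5 on the same strand, and EGFL7 likewise SSNA1, which a strand setting would not separate. The spans of 8 of the 33 genes overlap another gene, 6 of them on the opposite strand. EGFL7, a secreted vessel-wall protein whose span holds the miR-126 gene, had 0.04 ± 0.14, and VWF had 0.04 ± 0.16.

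**Figure D4:**
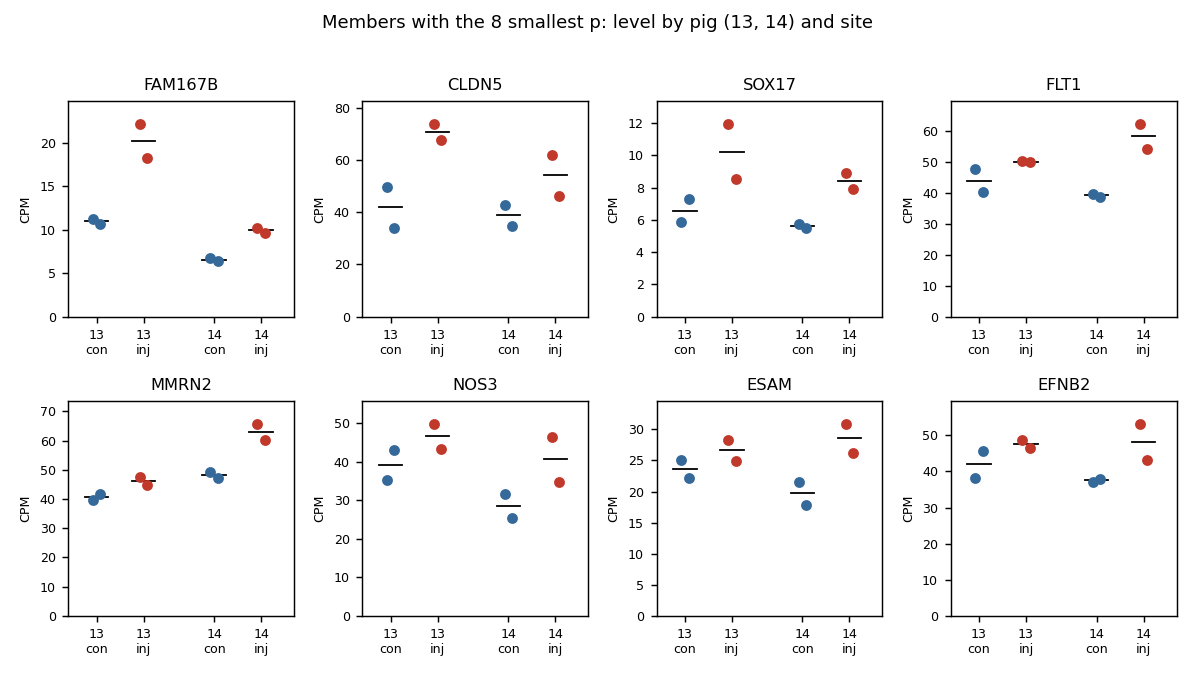
CPM of the 8 members with the smallest p, by pig (13, 14) and site (con, control; inj, injected); dots are biopsies, lines their mean, and axes start at 0. In every panel except ESAM both red dots of a pig lie above both blue dots of that pig.

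NOTCH4 and the apelin genes gave no resolved difference either. NOTCH4, the Notch receptor largely restricted to endothelium, had 0.04 ± 0.18. Apelin (APLN), made by sprouting tip cells, was 2.96 to 3.60 CPM injected and 2.87 to 5.47 CPM control, at -0.31 ± 0.23. Its receptor APLNR was 6.71 to 15.9 CPM injected and 6.45 to 10.1 CPM control, at 0.11 ± 0.29. The 15.9 CPM came from site 12d of pig 14, and without that biopsy the APLNR value was -0.26.

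The lymphatic members had values of both signs. PROX1, the factor that sets lymphatic identity, had 4.63 and 4.46 CPM injected against 8.28 and 4.93 CPM control in pig 13, and 7.23 and 5.11 against 7.45 and 6.95 CPM in pig 14. Injected sites were lower in pig 13 without overlap and overlapped the controls in pig 14, at -0.38 ± 0.20 (unadjusted p = 0.081, edgeR adjusted p = 0.964). MMRN1, a matrix protein of lymphatic endothelium and platelets, had 37.2 and 40.1 CPM injected against 39.9 and 23.0 CPM control in pig 13. Pig 14 had 31.8 and 19.2 against 40.2 and 38.7 CPM, so MMRN1 was below its controls in pig 14 alone. Its log2 fold change over both pigs was -0.16 ± 0.26. For PROX1 and MMRN1 too, the share of all genes apart in a single pig was not computed. PDPN, podoplanin, found by identifier and made by fibroblasts and keratinocytes as well as lymphatic endothelium, had 79.4 CPM at site 7b and 29.1 to 54.9 CPM elsewhere. Its log2 fold change was 0.17 ± 0.28, and 0.58 without that biopsy, the one with the highest keratinocyte and lowest fibroblast marker sum, whose part in this value was not tested.

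LYVE1, the hyaluronan receptor of lymphatic capillaries and of some macrophages, had differences of opposite sign in the pigs. In pig 13 it was 16.6 CPM at both injected sites, against 6.91 and 7.83 CPM at the controls. In pig 14 it was 18.7 and 10.4 CPM injected, against 16.3 and 18.5 CPM. The injected sites were well above the controls in pig 13 and straddled them in pig 14. The within-pig differences were 1.17 and -0.32, and the interaction of pig and treatment was -1.43 ± 0.35 (pig 14 minus pig 13), with an edgeR adjusted p of 0.439 and a DESeq2 adjusted p of 0.0466. No member passed the adjusted threshold for that interaction in edgeR, as 0 of all genes did (0%). DESeq2 called LYVE1 alone, beside 0.516% of the 16077 genes to which it gave an adjusted p for the interaction. At an unadjusted p under 0.05 the interaction counted 5 of 30 members (16.7%), beside 8.22% of all genes.

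Those 5 were PLVAP (0.94 ± 0.26), NOTCH4 (0.81 ± 0.26), APLNR (1.08 ± 0.46) and VWF (0.63 ± 0.26), each with the larger value in pig 14, and LYVE1. PLVAP had 72.2 and 57.3 CPM injected against 42.8 and 33.5 CPM control in pig 14, but 65.9 and 57.6 against 79.5 and 60.2 CPM in pig 13. NOTCH4 had 36.2 and 31.5 against 27.7 and 21.8 CPM in pig 14, and 27.8 and 28.8 against 30.5 and 42.4 CPM in pig 13. In both genes the groups were apart in pig 14, and NOTCH4 was apart the other way in pig 13. The share of all genes apart in a single pig was not computed.

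Adipocyte marker levels followed a similar pattern of sites in pig 13 and in part in pig 14. The summed level of 7 adipocyte genes was 2247 and 2069 CPM at the injected sites of pig 13 and 589 and 603 CPM at its controls. In pig 14 it was 2725 and 674 CPM injected and 2976 and 1532 CPM control. The high and low sites of pig 13 were the same for LYVE1 and for this sum, and site 12c was the lowest of pig 14 in both. The controls of pig 14 stood in opposite order: LYVE1 had 16.3 CPM at site 7e and 18.5 CPM at site 6b, and the sum 2976 and 1532 CPM. All 7 adipocyte genes had log2 fold changes above 0 over both pigs, with a median of 1.99 in pig 13 and -0.66 in pig 14. None passed the test, and none was at 0 in any biopsy. Over the groups the sum spanned 674 to 2725 CPM injected and 589 to 2976 CPM control. The fibroblast sum was also apart in pig 13, at 77730 and 109400 CPM injected and 19430 and 77190 CPM control. In pig 14 it was 136900 and 190900 CPM injected and 167700 and 192900 CPM control. The leukocyte and platelet list, which mixes several cell types, summed to 405 and 449 CPM injected and 441 and 325 CPM control in pig 13. Its macrophage genes there were 65.7 and 93.8 against 70.0 and 32.2 CPM for CD163, and 194 and 213 against 217 and 158 CPM for CSF1R. That sum and both genes overlapped between groups. The part of any of these in the LYVE1 values was not tested.

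**Figure D5:**
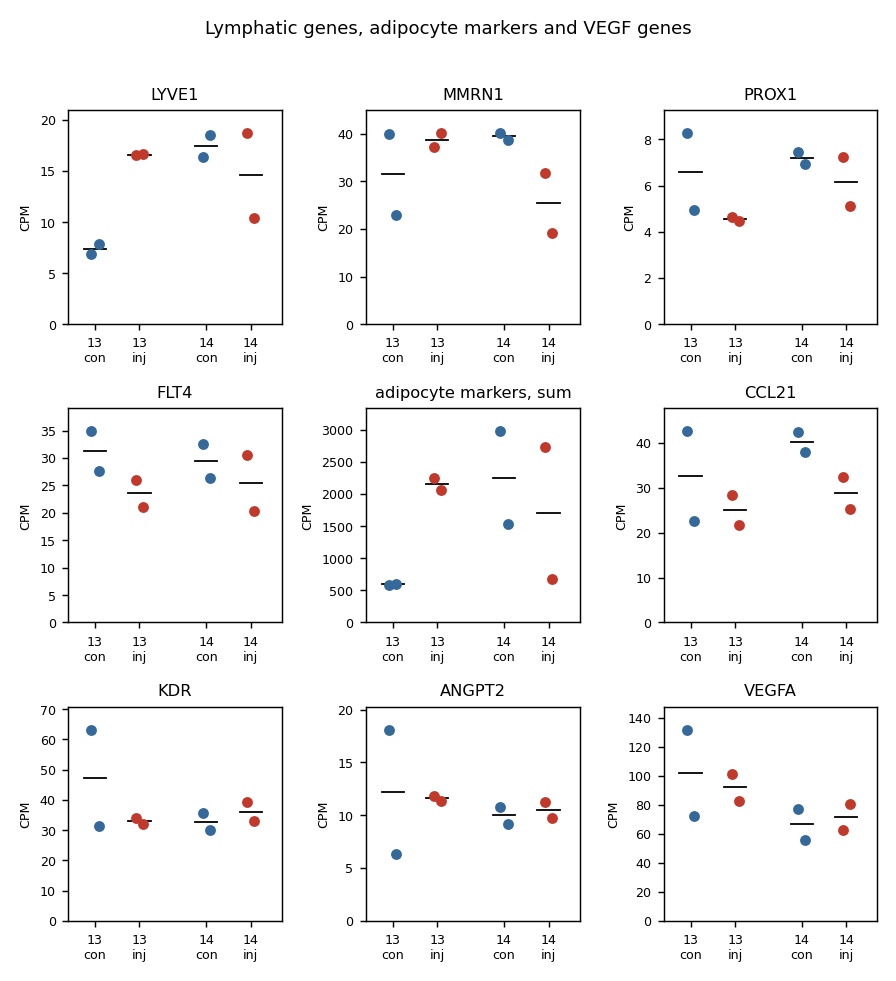
CPM of lymphatic genes, the summed adipocyte markers, CCL21, KDR, ANGPT2 and VEGFA by pig and site, with dots for biopsies and lines for means; axes start at 0. LYVE1 and the adipocyte sum are both higher at the injected sites of pig 13, and KDR, ANGPT2 and VEGFA peak at the control site 7b of pig 13.

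The leading members were also set against the other vessel genes of the same biopsy. Each was expressed as log2 CPM less the mean of 6 broad endothelial genes (PECAM1, CDH5, VWF, ERG, TIE1 and KDR). On that scale injected minus control was 0.66 for FAM167B, 0.55 for CLDN5 and 0.52 for SOX17. FLT1 and NOS3 had 0.30 each, ESAM 0.28, MMRN2 0.21 and EFNB2 0.19. In pig 13 and pig 14 the values were 0.98 and 0.34 for FAM167B, 0.89 and 0.21 for CLDN5, and 0.73 and 0.31 for SOX17. FLT1 (0.30 in both pigs) and ESAM (0.28 and 0.27) differed little by pig. These genes were picked by their difference in the same data. The mean of the 6 broad genes overlapped between groups, from 6.07 to 6.54 at injected and 5.85 to 6.475 at control sites. Positive values were therefore likely from the start and are no separate support for a difference. The 6.475 was that of site 7b of pig 13, where KDR stood far above the other biopsies, and its part in the pig 13 values was not tested. CLDN5, SOX17, NOS3 and ESAM had both injected sites above both controls in each pig on this scale. The closest pairs were -3.389 and -3.396 for SOX17 in pig 14 and -0.631 and -0.654 for NOS3 in pig 13. The share of all genes that are apart on this scale was not computed. FLT1 and MMRN2 overlapped in pig 14 and EFNB2 in both pigs, although all of them were apart in each pig in CPM. FAM167B kept that separation in pig 13, while in pig 14 the injected site 12d, at -3.19, and the control site 6b, at -3.18, touched.

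The ligands and partners of these receptors, from a list of VEGF, angiopoietin and apelin genes, showed 1 of 14 tested genes higher at an unadjusted p under 0.05 and 0 lower, with a median of 0.06. For this and the lists that follow, the shares over all genes tested were 2.39% higher and 2.15% lower. That gene was PTPRB, the endothelial phosphatase that restrains TIE2 (0.25 ± 0.11). ANGPT1, the TIE2 agonist, had the next smallest p (-0.36 ± 0.17, unadjusted p = 0.058). VEGFA, named after its values were seen, was highest at site 7b, with 132 CPM against 55.7 to 101 CPM elsewhere. Notch, BMP and sphingosine genes had 1 of 17 higher and 0 lower, the sphingosine receptor S1PR1 (0.18 ± 0.08), with NOTCH1 next (0.26 ± 0.16) and a median of 0.06. Of 18 further endothelial transcription factors 0 passed in either direction. TCF15 (1.15 ± 0.58, at most 0.865 CPM) and FOXC1 (0.35 ± 0.22) had the smallest p there, and the median was -0.01.

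Further endothelial markers had 4 of 21 higher and 1 lower at that unadjusted p, with a median of 0.10. ACKR1, the chemokine-binding receptor of venular endothelium, had 95.3, 89.0, 83.4 and 70.2 CPM at injected and 64.0, 67.3, 52.4 and 47.5 CPM at control sites. All 4 injected sites were above all 4 controls, at 0.56 ± 0.09, with an edgeR adjusted p of 0.173 and a DESeq2 adjusted p of 0.000483. GJA5, an arterial gap-junction protein, had 0.68 ± 0.18 and a DESeq2 adjusted p of 0.13. The others, named after their values were seen, were TMEM100 (0.64 ± 0.18), the water channel AQP1 (0.30 ± 0.13) and, lower, the lymphatic chemokine CCL21 (-0.43 ± 0.19). Mural cell genes had 1 of 11 higher, CSPG4 (0.38 ± 0.11), with TAGLN next (0.30 ± 0.14) and a median of 0.09.

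Lists of the remaining cell types of the biopsy had median standard errors of 0.21 to 0.71, against 0.15 for the members. That median was 0.12 for the mural cell genes and 0.17 over all genes tested. Fibroblast markers had 0 of 9 past that p (THY1 0.39 ± 0.18, FBLN1 0.17 ± 0.09) and a median of 0.28. Keratinocyte markers had 0 of 8 higher and 1 lower, DSG1 (-0.38 ± 0.17), with KRT10 next (-0.55 ± 0.29) and a median of -0.24. Adipocyte markers had 0 of 7 (PPARG 0.90 ± 0.60, CIDEC 1.05 ± 0.82), with a median of 0.82. Leukocyte and platelet markers had 0 of 9 (PTPRC -0.15 ± 0.21, CD163 0.19 ± 0.36) and red blood cell markers 0 of 5 (HBM -0.30 ± 0.36), with medians of 0.03 and -0.23.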

How the data were processed

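RNA of whole skin biopsies was depleted of ribosomal RNA, per the labels' protocols, and sequenced; the tools were bcl2fastq, STAR 2.5.1a and Subread's featureCounts 1.4.6-p5 on Sscrofa11.1, per the submitters' processing notes. A strand setting is not given in the sources used. Per the file headers, the deposited values are raw read counts by Ensembl gene, in a table of all 8 biopsies and in a file per biopsy. Those files also hold the authors' CPM, computed from the reads assigned to genes, and RPKM, which are CPM per kilobase of the deposited gene length; the deposited CPM and RPKM were only compared with the counts. The 7 complete single files matched the table in every count, and the incomplete file of the pig 13 biopsy from site 7b was not used, so that biopsy was read from the table. The table's 32388 rows hold 31907 genes; 425 genes on several rows had identical counts and were kept once.

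From the counts, edgeR 4.0.16 in R 4.3.3 was run with filterByExpr (minimum count 10), TMM scaling and the robust quasi-likelihood F test, with treatment and pig in the model, over 19862 genes. The call threshold was 0.05 on the Benjamini-Hochberg adjusted p. CPM and RPKM printed here are after TMM scaling. A second model held the interaction of pig and treatment. The biological coefficient of variation was 19.8%, and the scripts were tested on simulated data. DESeq2 1.42.0, 2 other scalings, no filter, no pig block, each pig alone and leaving out each biopsy were alternatives. DESeq2 gave an adjusted p for 17765 genes, and for 16077 in the interaction.

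The labels name the animal of each biopsy, so pig entered as a block. Checked on the data, deviations from the group mean had correlations of 0.196 to 0.584 for an injected and a control biopsy of the same animal, and of -0.526 to -0.251 for different animals. No biopsies of a group agreed within sampling noise. The members and lists were chosen with earlier results of these data known. All members are named; full values go to those with the 8 smallest p, the lymphatic members, the VEGF and TIE receptors and any called by either tool, and each other list gives its 2 smallest p, except 1 gene that is not reported here.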

Additional observations from a re-analysis of the deposited data

Results flagged for a closer look

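Among 66 groups of 4 biopsies checked, the highest or lowest biopsy lay far from the other 3 in 7. The limit used is the one that chance passes in about 1 in 20 independent groups, whereas these groups share biopsies and pool both pigs. In the controls, FLT1 (47.6 CPM, others 38.7 to 40.1), KDR (63.2 CPM, others 29.9 to 35.5) and PDPN (79.4 CPM, others 29.1 to 30.4) were far above the rest at site 7b of pig 13, the biopsy with the lowest fibroblast and highest keratinocyte marker sums. Site 6b of the same pig stood apart from the other controls in EMCN (23.6 CPM, others 33.8 to 35.9), MMRN1 (23.0 CPM, others 38.7 to 40.2) and EFNB2 (45.8 CPM, others 37.2 to 38.3), below them in EMCN and MMRN1 and above them in EFNB2. Among injected sites, APLNR at site 12d of pig 14 had 15.9 CPM, against 6.71 to 7.39 CPM at the others.

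NOTCH4 and SOX7, the latter found by identifier, had both injected sites above both controls in pig 14 and below both in pig 13. The share of all genes with this opposite order was not computed. The response in pig 14 minus that in pig 13 was 0.81 on the log2 scale for NOTCH4 (edgeR interaction, unadjusted p = 0.0102, adjusted p = 0.499) and 0.51 for SOX7 (unadjusted p = 0.0264, adjusted p = 0.548). Neither passed the adjusted threshold, an unadjusted interaction p under 0.05 held for 8.22% of all genes, and the pattern compares only these animals.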

How the results depend on the processing

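FAM167B, CLDN5 and SOX17 had an unadjusted p under 0.05 in the higher direction under all 15 alternatives. FLT1 and MMRN2 did so in every fit that left out 1 biopsy, but not in pig 13 alone, and MMRN2 not without the pig block. These genes had the smallest p of the members in the main fit, and the alternatives reuse the same biopsies. Their persistence was therefore likely from the start and is no separate support for a difference. The share of all genes that persist in this way was not computed. Members called higher were 0 in every edgeR fit and 1 with DESeq2, beside 0.276% of the genes to which it gave an adjusted p. Members higher at an unadjusted p under 0.05 numbered 5 to 10 when 1 biopsy was left out, beside 1.5% to 3.85% of all genes. In pig 13 alone they numbered 4, beside 4.13%, and in pig 14 alone 10, beside 4.91%. Lower members numbered 0 to 2 when 1 biopsy was left out, beside 1.04% to 4% of all genes. There was 1 each without the filter (FLT4, beside 1.68%), in pig 13 alone (SOX18, beside 2.21%) and in pig 14 alone (MMRN1, beside 4.08%). The median was -0.088 in pig 13 alone and 0.28 in pig 14 alone. The interaction called 1 member with DESeq2 (LYVE1), beside 0.516% of the genes to which it gave an adjusted p. Leaving out 1 biopsy left a single site for a pig and treatment, so interaction calls of those fits are not counted here. Without the replicate block of pig, 6 members were higher at an unadjusted p under 0.05, beside 1.4% of all genes, and 0 were called, so no call changed. The cause of these changes was not tested.

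No scaling turned a direction. Leaving out 1 biopsy gave log2 ranges across 0 for PECAM1 (-0.069 to 0.17), CDH5 (-0.063 to 0.20), EMCN (-0.17 to 0.038), ENG (-0.064 to 0.058), ROBO4 (-0.15 to 0.25), KDR (-0.31 to 0.11), TIE1 (-0.028 to 0.18), ANGPT2 (-0.23 to 0.38), SOX7 (-0.086 to 0.059), NOTCH4 (-0.11 to 0.22), APLNR (-0.26 to 0.28), VWF (-0.10 to 0.15), EGFL7 (-0.068 to 0.14), PDPN (-0.0041 to 0.58), MMRN1 (-0.40 to 0.067), PTPRC (-0.31 to 0.052) and CD163 (-0.082 to 0.52). In pig 13 alone the sign turned for PECAM1 (-0.11), CDH5 (-0.13), PLVAP (-0.17), ROBO4 (-0.32), TIE1 (-0.13), NOTCH4 (-0.36), APLNR (-0.42), VWF (-0.27), PDPN (-0.11), NOTCH1 (-0.050), MMRN1 (0.30) and PTPRC (0.034). In pig 14 alone it turned for ENG (0.12), KDR (0.15), ANGPT2 (0.078), SOX7 (0.26), SOX18 (0.033), LYVE1 (-0.25), CIDEC (-0.32), PPARG (-0.10) and CD163 (-0.24). None of these was called.

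The median standard error of a member was 0.15, and with 4 biopsies a group from 2 animals the intervals of 22 of 30 members cross 0, so smaller differences were not detectable at this precision.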
